A study of Mus musculus with 12 samples.

Results

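The genes described here are 9 members of the JAK-STAT pathway: the kinases Jak1, Jak2 and Tyk2, the transcription factors Stat2, Stat4, Stat5a, Stat5b and Stat6, and the inhibitor Socs1. They were chosen by name, with no measured value in the rule, though earlier results of these data were known. They come from the 545 endogenous genes of a NanoString nCounter mouse immune panel, which counts a fluorescent barcode for each transcript without sequencing. The RNA came from microglia, the resident macrophages of the brain, sorted from the hippocampus of male Balbc mice at postnatal day 28. The 6 BDS mice had been taken from the mother for 15 min a day (brief daily separation) from postnatal day 1 to 21. The 6 control mice shared strain, sex, age and cell isolation, and the labels do not say how they were handled. Each mouse came from its own litter according to the design text, so the spread between replicates is that between animals. Samples are named by group and by the number in their label.

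Receptors for interferons, many interleukins and GM-CSF have no kinase activity of their own. A ligand brings together the JAK kinases bound to the receptor tails, the kinases phosphorylate the receptor, and STAT proteins dock there, are phosphorylated, pair and enter the nucleus. Jak1 and Tyk2 serve the type I interferon receptor, where Stat2 acts, and Jak2 serves receptors of the GM-CSF and interleukin-12 families. Stat6 carries the interleukin-4 and interleukin-13 response, Stat4 the interleukin-12 response of lymphocytes, and Stat5a and Stat5b the response to GM-CSF and related cytokines. Socs1 is induced by STATs and blocks JAK kinases, which closes a feedback loop.

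The promoters of Socs1 and Stat2 are shown because they hold the core of the interferon-stimulated response element, the sequence bound by the complex of Stat2 with its partners. They are the 250 bases before the annotated start in RefSeq (GRCm38.p6), 5′ to 3′ on the gene's strand, and capitals mark the core, searched on both strands as GAAA, any 2 bases and GAAA. The Socs1 stretch is chr16:10785537-10785786 on the minus strand and holds 2 overlapping matches. The Stat2 stretch is chr10:128270248-128270497 on the plus strand and holds 1.
Socs1: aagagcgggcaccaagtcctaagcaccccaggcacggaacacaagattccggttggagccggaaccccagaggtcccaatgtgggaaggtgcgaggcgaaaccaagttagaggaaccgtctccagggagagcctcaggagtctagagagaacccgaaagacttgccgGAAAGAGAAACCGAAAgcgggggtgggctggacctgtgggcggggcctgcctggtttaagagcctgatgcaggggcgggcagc
Stat2: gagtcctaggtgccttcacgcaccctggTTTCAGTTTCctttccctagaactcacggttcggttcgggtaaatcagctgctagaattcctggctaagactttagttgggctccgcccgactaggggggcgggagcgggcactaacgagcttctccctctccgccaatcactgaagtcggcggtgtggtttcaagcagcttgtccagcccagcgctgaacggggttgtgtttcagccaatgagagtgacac

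Of the 12 promoters listed for the 9 genes, each 300 bases long with 50 bases after the start, 3 held that core, the other being at 1 of the 2 starts of Stat4. Of all 32851 promoters in the table, 3.44% held it. The palindromic STAT site TTCNNNGAA was in 0 of the 12 and in 8.3% of all promoters. These matches describe letters in the reference and say nothing about binding in these cells.

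Total barcode counts ran from 893936 to 1409376 in controls and from 641756 to 1171355 in BDS. Counts were divided by a factor made from 6 housekeeping genes of the same sample, and these scaled counts are given below. The factor was lowest in BDS 21, BDS 25 and BDS 55, at 0.609 to 0.854 against 0.875 to 1.47 in the other 9 samples. The Rpl19 to Polr2a count ratio, taken from a pair of the panel's other housekeeping genes, was 0.465 to 0.790 in those 3 samples and 0.113 to 0.267 in the other 9. All 9 microglial markers on the panel passed the background filter, as did 7 of 16 T cell markers and 3 of 9 B cell markers. The defining T cell markers Cd3d and Cd3e and the B cell marker Pax5 were above background in 0 samples. Because the panel measures bulk RNA, fewer cells of a type and less RNA per cell cannot be told apart.

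The comparison of BDS with control asked whether early separation left a difference in the signalling machinery of hippocampal microglia a week after it had ended. None of the 8 members that could be tested passed the adjusted threshold of 0.05, and their adjusted p-values ran from 0.380 to 0.891 (edgeR quasi-likelihood test over 357 genes). Over all 357 genes 0 passed as well, while an unadjusted p under 0.05 was reached by 41 genes lower in BDS and 3 higher (14 and 18 with TMM scaling, which scales to the tested genes themselves). With housekeeping scaling, Stat5a was the only member at an unadjusted p under 0.05. That is 1 of 8, against 12.3% of all tested genes, a share close to that of the panel, and with TMM scaling it was 0 of 8. Log2 fold changes were below 0 for 6 of 8 members, against 66.1% of all tested genes, and for 4 of 8 with TMM scaling, against 52.1%. The median was -0.09 for the members and -0.10 for all tested genes, and 0.00 and -0.01 with TMM scaling. For no member did all BDS samples lie on 1 side of every control, which 1.12% of tested genes did, all of them lower in BDS.

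**Figure D1:**
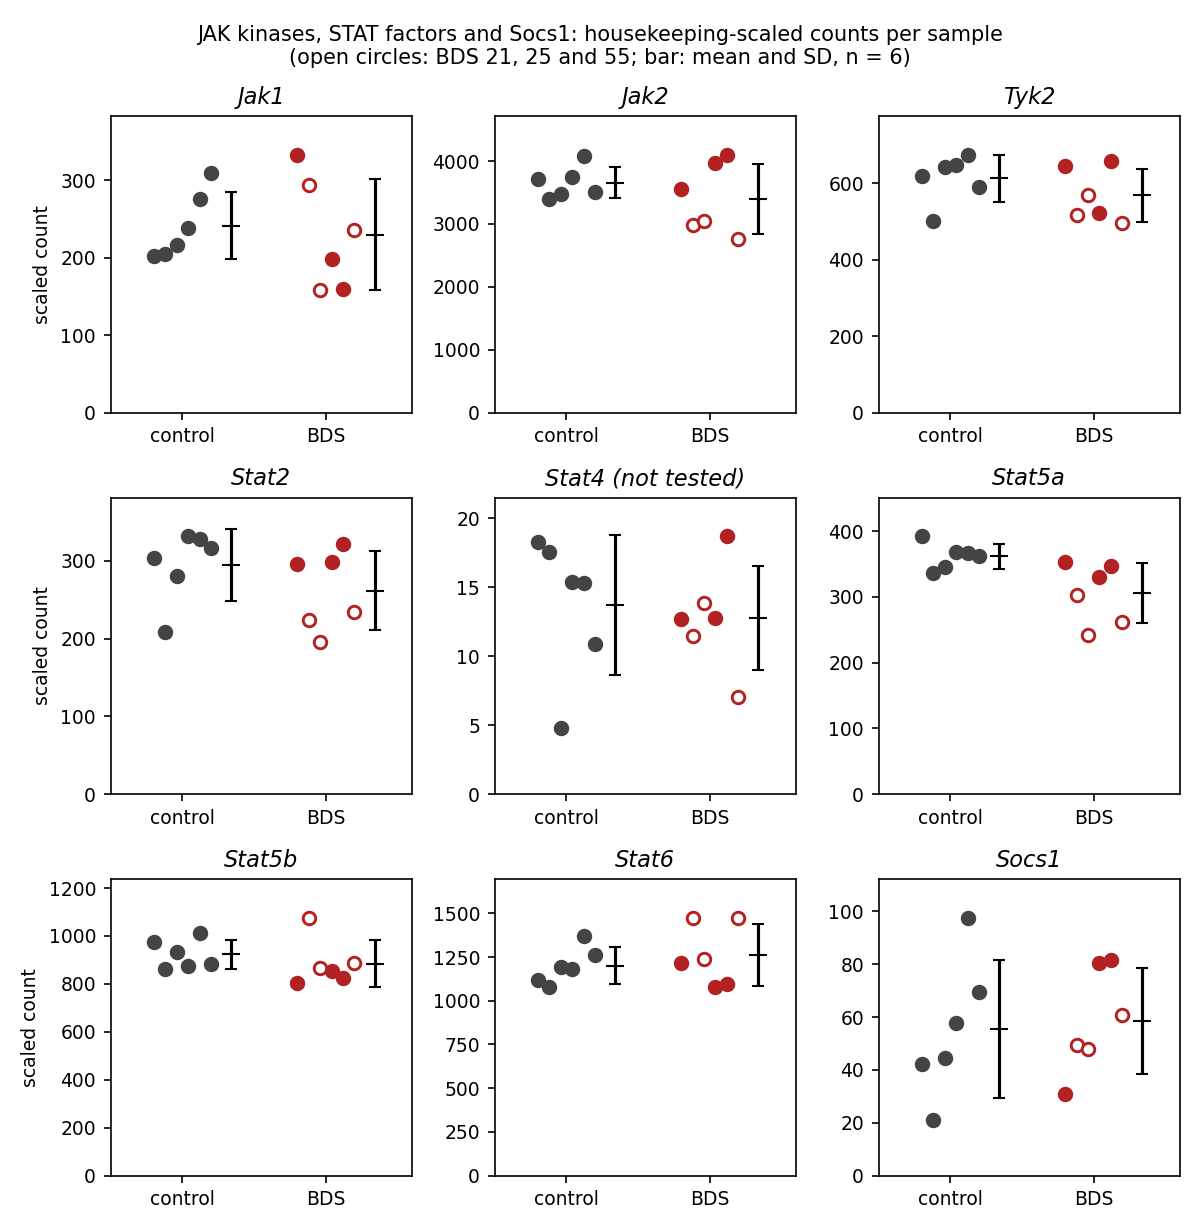
Housekeeping-scaled counts of the 9 genes in each of the 12 samples, on axes that start at 0, with controls in grey, BDS in red and BDS 21, 25 and 55 as open circles; bars give mean and SD (n = 6). The groups overlap for every gene, and the open circles lie at the bottom of Jak2 and Stat5a, whose lowest BDS values were 2762 and 242.

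Among the kinases, Jak2, which serves the GM-CSF and interleukin-12 receptors, had control values of 3399, 3610 and 4081 scaled counts (lowest, median and highest). In BDS they were 2762, 3299 and 4096. BDS 21, BDS 25 and BDS 55 lay below every control at 2988, 3046 and 2762, while BDS 7, BDS 35 and BDS 43 had 3552, 3964 and 4096. The log2 fold change was -0.10 ± 0.10 (SE), with a 95% interval of 0.799 to 1.08 in fold. It turned to 0.08 without those 3 samples.

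Tyk2, the kinase of the type I interferon and interleukin-12 receptors, ran over nearly the same values in each group. The lowest, median and highest were 501, 631 and 674 scaled counts in controls and 497, 547 and 657 in BDS. The log2 fold change, -0.11 ± 0.10 (SE), had a 95% interval of 0.797 to 1.08 in fold and was -0.01 without BDS 21, BDS 25 and BDS 55.

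Jak1, the kinase shared by interferon, interleukin-6 and common gamma chain receptors, varied most of the 3 kinases. Its controls were at 202, 228 and 310 scaled counts, and BDS samples at 159, 217 and 332. The highest of all 12 samples was BDS 7, and the lowest were BDS 25 and BDS 43, so the spread of BDS enclosed that of the controls. The coefficient of variation was 17.9% in controls and 31.2% in BDS. Counting noise of the final barcodes alone, without that of the amplification before it, would give 6.24% and 7.40%. The log2 fold change of Jak1 was -0.07 ± 0.19 (SE) and turned to 0.01 with TMM scaling. It was also at 0.01 or 0.02 without control 54, BDS 25 or BDS 43.

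Of the STAT factors, Stat5a had the lowest p of the 9 genes. It is 1 of 2 closely related factors that lie side by side on chromosome 11 and are read in opposite directions. Its controls lay close together, at 337, 364 and 392 scaled counts, and BDS samples were at 242, 316 and 353. BDS 25, BDS 55 and BDS 21 were lowest at 242, 261 and 302, and BDS 35 at 330 also lay below every control. BDS 43 and BDS 7, at 347 and 353, lay within the control range.

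Stat5a had a log2 fold change of -0.24 ± 0.11 (SE), a fold of 0.847 with a 95% interval of 0.721 to 0.995. The unadjusted p was 0.044 and the adjusted p 0.38 (edgeR), which placed Stat5a at rank 40 of 357. A two-sided exact permutation test of the mean log2 scaled count gave p = 0.0152, where the smallest possible p is 0.00216. That test used the same scaled counts, was added after the data were seen, and its p is not adjusted over genes. In the authors' deposited table the group means are 385 and 329, with a fold of 0.86 and p = 0.0307. With TMM scaling the log2 fold change was -0.15 (unadjusted p = 0.15). Without BDS 21, BDS 25 and BDS 55 it was -0.08 (unadjusted p = 0.42). Leaving out single samples gave -0.28 to -0.18, and the unadjusted p was above 0.05 without control 5, 13, 27, 44 or 54 or without BDS 21, 25 or 55.

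Stat5b, its neighbour, did not show the same spread. Controls were at 862, 908 and 1014 scaled counts and BDS samples at 804, 860 and 1076. BDS 21, among the lowest for Stat5a, was the highest of all samples for Stat5b, and BDS 7, BDS 35 and BDS 43 were the lowest. The log2 fold change was -0.06 ± 0.09 (SE), with a 95% interval of 0.839 to 1.09 in fold, and turned to 0.03 with TMM scaling. It was -0.16 without BDS 21, BDS 25 and BDS 55 (unadjusted p = 0.086) and -0.12 without BDS 21 alone. With Rpl19 over Polr2a as a covariate it was -0.17 (unadjusted p = 0.074).

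Stat2, which acts in the type I interferon response, had 208, 310 and 331 scaled counts in controls and 196, 265 and 322 in BDS. Control 9 at 208 and BDS 25 at 196 were the lowest samples of their groups. BDS 21 and BDS 55 had 223 and 234, and the other 3 BDS samples had 296 to 322. Its log2 fold change of -0.17 ± 0.15 (SE) had a 95% interval of 0.716 to 1.11 in fold, and turned to 0.05 without BDS 21, BDS 25 and BDS 55.

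Stat6, the factor of the interleukin-4 response, had its highest values where Jak2 and Stat5a were low. Controls were at 1080, 1186 and 1369 scaled counts and BDS samples at 1079, 1227 and 1474. BDS 55 and BDS 21, at 1474 and 1472, lay above every control. The log2 fold change was 0.07 ± 0.10 (SE), with a 95% interval of 0.904 to 1.22 in fold, and turned to -0.09 without BDS 21, BDS 25 and BDS 55.

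Stat4, the factor through which lymphocytes respond to interleukin-12, was near the detection limit and did not enter the fit over all genes. Raw counts were 5 to 21 in controls and 6 to 24 in BDS, and 2 of 6 control and 1 of 6 BDS samples exceeded the background limit, which is set 2 SD over the average negative-control probe (15.3 to 21.8 counts). A two-sided exact permutation test of its mean log2 scaled count gave a difference of -0.04 (p = 0.91), and at this depth a small difference was not detectable.

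Socs1, the feedback inhibitor, was the most variable of the tested members. Controls were at 21.2, 51.1 and 97.6 scaled counts, a range of 4.60-fold, and BDS samples at 30.9, 55.1 and 81.7, a range of 2.65-fold. Control 9 was lowest and control 44 highest of all samples, so the controls enclosed the BDS samples. The coefficient of variation was 47.3% in controls and 34.1% in BDS. Counting noise of the final barcodes alone, without that of the amplification before it, would give 14.4% and 15.1%. Raw counts of 23 to 105 lay above background in all 12 samples. The log2 fold change was 0.08 ± 0.31 (SE), and its 95% interval of 0.665 to 1.69 in fold leaves room for a change in either direction. It turned to -0.08 without control 9, to -0.03 without BDS 35 and to -0.04 without BDS 43.

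**Figure D2:**
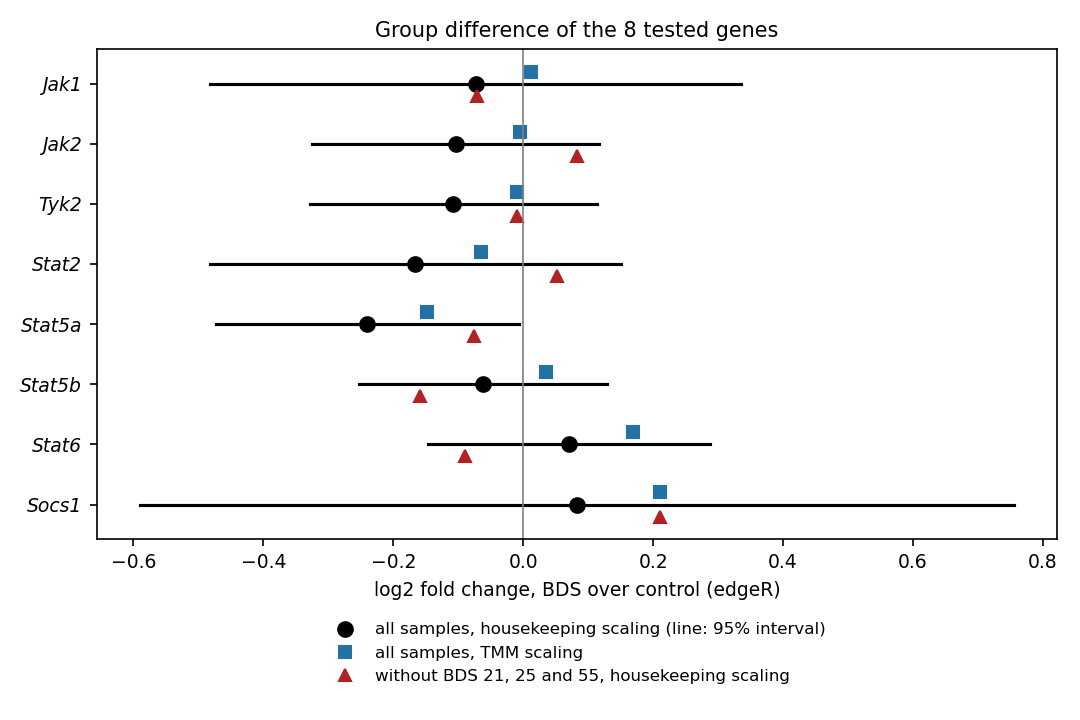
Log2 fold changes (BDS over control, edgeR) of the 8 tested genes with all samples and housekeeping scaling (black, with 95% intervals), with TMM scaling (blue) and without BDS 21, 25 and 55 (red). The black interval of Stat5a ends just below 0 and the other 7 include 0; Jak2, Stat2 and Stat6 change side without the 3 samples.

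The deviation of each sample from the control mean shows which members were low in the same samples. In BDS 21, BDS 25 and BDS 55, Stat5a stood at -0.26, -0.58 and -0.47 on the log2 scale. Jak2 stood at -0.29, -0.26 and -0.40 in the same samples and Stat2 at -0.38, -0.57 and -0.31. Stat6 stood at 0.30, 0.05 and 0.30. In BDS 7, BDS 35 and BDS 43, Stat5a ran from -0.13 to -0.03, Jak2 from -0.04 to 0.17 and Stat2 from 0.02 to 0.14. The lowest values of Jak2 and Stat5a thus lay in the samples with the lowest housekeeping factors. How many of all 357 tested genes were lowest in those samples was not counted, so this is not shown to be particular to these members. Stat2 was also low in control 9 (-0.49), and Stat5a in BDS 35 (-0.13) lay below every control.

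**Figure D3:**
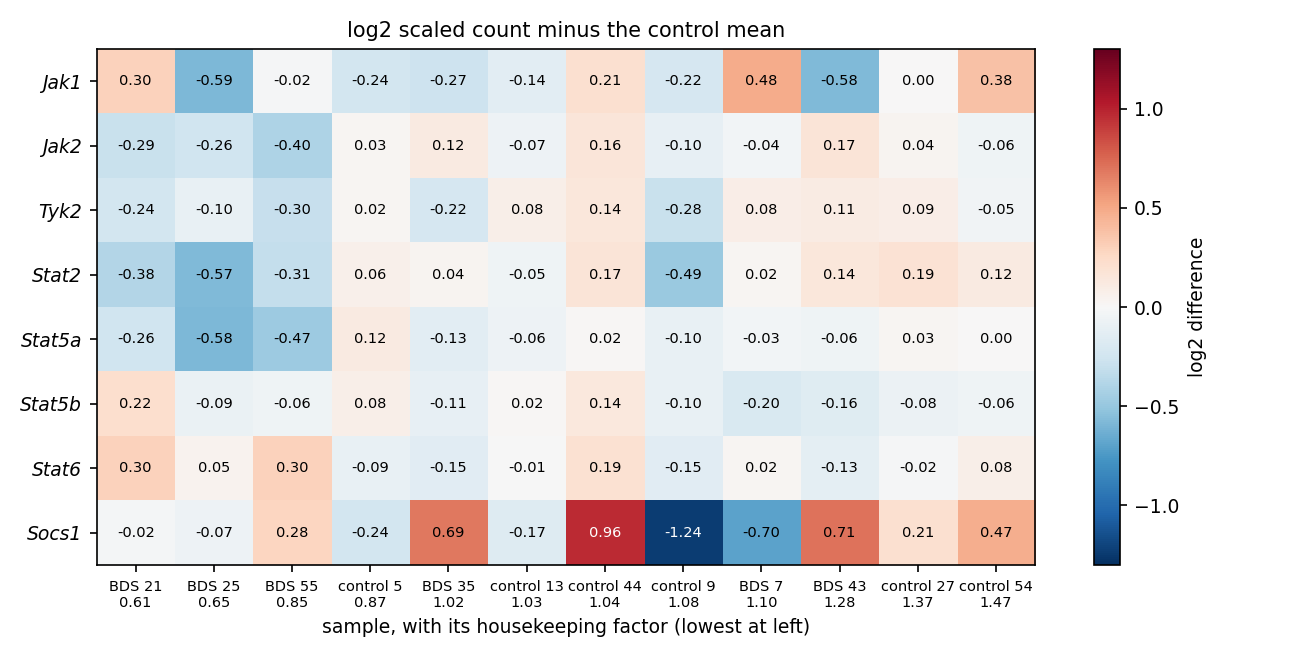
Log2 scaled count minus the control mean for the 8 tested genes (rows) in the 12 samples (columns), which are ordered by housekeeping factor from 0.61 in BDS 21 to 1.47 in control 54; blue is lower and red higher. The 3 columns at the left are blue for Jak2, Tyk2, Stat2 and Stat5a and not for Stat6, and Socs1 has its extremes in control 9 (-1.24) and control 44 (0.96).

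Ratios of 2 members within a sample need no scaling factor, and 4 were compared between the groups. They do not compare levels, since each gene has its own probe and primers. Stat5a over Stat5b was 0.361 to 0.422 in controls, and 0.281, 0.279 and 0.295 in BDS 21, BDS 25 and BDS 55, below all other samples. BDS 7, BDS 35 and BDS 43 had 0.440, 0.386 and 0.421, of which the first lay above every control. The mean log2 ratio was -1.35 ± 0.09 in controls and -1.54 ± 0.30 in BDS (SD, n = 6; two-sided exact permutation p = 0.16, adjusted p = 0.49 over the 4 ratios). This test of the means thus did not tell the groups as labelled apart.

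Stat2 over Stat6 split the samples in the same way. It was 0.192 to 0.280 in controls, 0.152, 0.158 and 0.159 in BDS 21, BDS 25 and BDS 55, and 0.244 to 0.294 in the other 3 BDS samples. The mean log2 ratio was -2.04 ± 0.19 in controls and -2.28 ± 0.44 in BDS (SD, n = 6; two-sided exact permutation p = 0.24, adjusted p = 0.49). Without those 3 samples the difference turned from -0.19 to 0.08 for Stat5a over Stat5b and from -0.24 to 0.15 for Stat2 over Stat6 (exact permutation p = 0.27 and 0.26, smallest possible 0.0119). How many ratios of other tested genes set those samples apart was not counted. The split is thus not shown to be particular to these members.

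Jak1 over Jak2 and Jak1 over Tyk2 did not separate those samples. Jak1 over Jak2 was 0.0544 to 0.0883 in controls and 0.0390 to 0.0984 in BDS, and Jak1 over Tyk2 was 0.327 to 0.524 and 0.243 to 0.570. Their log2 differences were 0.01 and 0.00 (two-sided exact permutation p = 0.98 and 1). BDS 21 had the highest value of all samples for each, and BDS 43 the lowest.

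**Figure D4:**
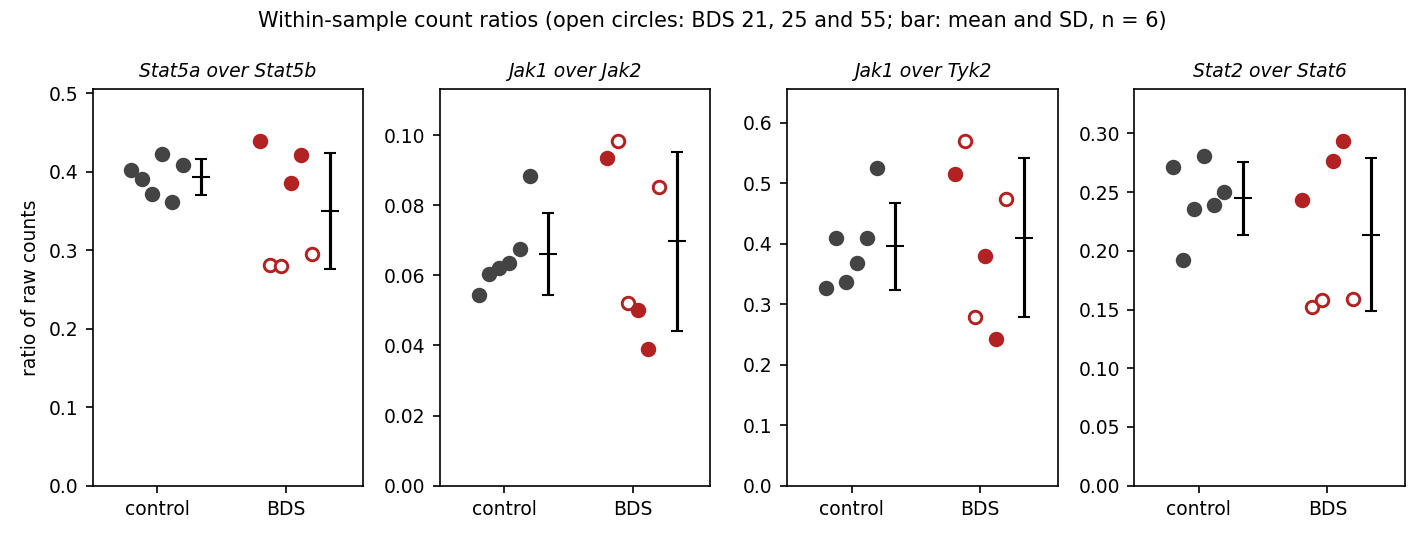
Ratio of raw counts of 2 genes in each of the 12 samples, on axes that start at 0, with controls in grey, BDS in red and BDS 21, 25 and 55 as open circles; bars give mean and SD (n = 6). The 3 open circles lie below all other samples for Stat5a over Stat5b (0.279 to 0.295) and Stat2 over Stat6 (0.152 to 0.159), and are mixed with them for the Jak1 ratios.

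Some other measures set the same 3 samples apart, and others overlapped. The summed scaled counts of the 9 microglial markers were 346602 to 393446 in BDS 21, BDS 25 and BDS 55 and 294559 to 335595 in the other 9 samples, and most of this sum came from Csf1r and Ctss. Of the 9 markers, Csf1r, Trem2, Tyrobp and C1qb were higher in each of those 3 samples than in any other, while Cx3cr1, Itgam, Tgfbr1, C1qa and Ctss overlapped. How many of all 357 tested genes set those 3 samples apart was not counted, so these markers cannot be compared with the panel. The monocyte receptor Ccr2, the only marker of 3 on the panel for blood monocytes and border macrophages that was tested, was at 225 to 259 against 269 to 480, with Cd163 above background in 0 samples. The sums of the 3 tested B cell markers overlapped, at 267 to 366 against 149 to 278. Of these, Tnfrsf13b was at 41.0 to 64.1 against 21.6 to 40.0, while Cd79a and Cd79b overlapped. Cr2, Pax5 and Cd22 were above background in 0 samples. The 7 tested T cell markers overlapped, at 629 to 731 against 612 to 785, as did the 4 NK cell markers, at 220 to 287 against 205 to 473. The 2 endothelial markers were at 915 to 986 against 943 to 1334, the 3 neutrophil markers, almost all of it Csf3r, at 3068 to 3445 against 3111 to 3710, and the 2 neural markers at 122 to 169 against 114 to 243. Of the endothelial markers, Cdh5 was at 96.9 to 106 against 116 to 188, while Pecam1 overlapped. The part of RNA amount, RNA quality or other cells in the Stat5a, Jak2 and Stat2 values was not tested.

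Correlations between members over the 12 samples are given as a description, since all points share their scaling factor. Stat2, Stat5a and Jak2 ran together, with Pearson r of 0.79 for Stat2 with Jak2, 0.79 for Stat2 with Stat5a and 0.77 for Jak2 with Stat5a, and 0.67, 0.68 and 0.68 with TMM scaling. Stat6 ran against Jak2 (r = -0.62) and with Stat5b (r = 0.55). Stat5a and Stat5b had an r of 0.07, and of -0.34 with TMM scaling. The median r was 0.25 over the 28 pairs of tested members and 0.10 over all pairs of tested genes, and -0.09 and -0.01 with TMM scaling.

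The 2 genes most like each member were named by the highest r with it over the 12 samples. For comparison, the median over all tested genes of the r with their most similar gene was 0.869. Socs1 was most like C2, a complement protease (r = 0.97, and 0.96 with TMM scaling), and then Gpr44 (r = 0.84). Stat5a was most like Cd164, a sialomucin, and Traf6, a signalling adaptor (both r = 0.94), and Jak2 most like Prdm1, a transcriptional repressor (r = 0.94), and Npc1 (r = 0.91). Stat6 was most like Btk, a cytoplasmic tyrosine kinase (r = 0.92), and Itga2b (r = 0.85, and 0.69 with TMM scaling), and Jak1 most like Tgfbr1 (r = 0.90) and Ikzf2 (r = 0.89). Stat2 followed the kinases Tbk1 and Irak1 (both r = 0.88). Tyk2 and Stat5b had weaker partners, Ifih1 and Tnfaip3 for Tyk2 (r = 0.83 and 0.81) and the interferon-induced Cxcl10 and Irf1 for Stat5b (r = 0.85 and 0.79). With TMM scaling these were 0.66 and 0.54 for Tyk2 and 0.61 and 0.81 for Stat5b. The pairs given without a TMM value were at 0.81 to 0.93 with it.

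The rest of the pathway was described from listed genes, and 0 of them passed the adjusted threshold. Of 20 tested receptor chains that signal through Jak1, Jak2 or Tyk2, 14 had log2 fold changes below 0, against 66.1% of all tested genes. In that list 4 had an unadjusted p under 0.05, all lower, against 11.5% of all tested genes lower. These were Il21r (-0.41 ± 0.10), Il6st (-0.38 ± 0.10), Il4ra (-0.42 ± 0.12) and Ifnar1 (-0.19 ± 0.09; log2, SE). Ifnar1, a chain of the type I interferon receptor that binds Tyk2, was named after its value was seen. Without BDS 21, BDS 25 and BDS 55, Il21r, Il6st and Il4ra were at -0.35, -0.21 and -0.38. The receptor median was -0.07, and 0.02 with TMM scaling.

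Of 26 ligands of those receptors on the panel, 10 passed the background filter. Of these, 8 had a log2 fold change above 0, against 121 of all 357 tested genes. Ebi3, a subunit of interleukin-27, was at 0.39 ± 0.14 and Il6 at 0.59 ± 0.22, each with an unadjusted p under 0.05. Il21 came next at 0.29 ± 0.20 (log2, SE). With housekeeping scaling 0.84% of all tested genes were higher at an unadjusted p under 0.05. With TMM scaling 18 of the 357 tested genes were, and with background subtracted 1 was (limma), so that share depends on the processing. The genes of the panel were not matched to the ligands for level. Several ligands lay close to background, Il6 at means of 15.0 and 23.0 scaled counts, where background limits were 15.3 to 21.8 raw counts. Whether Il6 met the filter mainly through BDS samples was not examined, so its p-value is not used as support for a difference. The ligand median of 0.21 was 0.30 with TMM scaling and -0.03 without BDS 21, BDS 25 and BDS 55, where Ebi3 was at 0.20 and Il6 at 0.40.

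Of 7 other tested kinases, STATs and regulators, 6 had log2 fold changes below 0, against 66.1% of all tested genes. Ptprc, a phosphatase that can act on JAKs, was at -0.28 ± 0.10 and Stat3 at -0.20 ± 0.12 (log2, SE). Ptprc was lower at an unadjusted p under 0.05, as were 11.5% of all tested genes. Without BDS 21, BDS 25 and BDS 55, Ptprc and Stat3 were at -0.13 and -0.08. The median of these 7 genes was -0.25, and -0.13 with TMM scaling.

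Of 14 tested target genes of interferon and STATs, 10 had log2 fold changes below 0, against 66.1% of all tested genes. Ifit2 (-0.53 ± 0.22) and Ddx58 (-0.28 ± 0.12) were lower at an unadjusted p under 0.05, against 11.5% of all tested genes. Ifih1 followed at -0.28 ± 0.14 (log2, SE), and the list's median was -0.11. That median was -0.02 with TMM scaling and -0.20 without BDS 21, BDS 25 and BDS 55, where Ifit2, Ddx58 and Ifih1 were at -0.32, -0.09 and -0.11. Of 10 tested target genes of interleukins and STATs, 7 had log2 fold changes below 0, a share near the 66.1% of all tested genes. Maf, a transcription factor of macrophages, was at -0.26 ± 0.11 (log2, SE). It was the only 1 of the 10 at an unadjusted p under 0.05, against 12.3% of all tested genes. Foxp3 was at 0.44 ± 0.22 with means of only 19.7 and 27.0 scaled counts, and Irf4 at -0.27 ± 0.17 (log2, SE). The median was -0.16, and -0.07 with TMM scaling. Without BDS 21, BDS 25 and BDS 55 it was -0.11, with Maf at -0.11, Foxp3 at 0.29 and Irf4 at -0.13.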

How the data were processed

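The deposited raw file gives each probe's unnormalized barcode count in each sample, per the file headers. The authors' other deposited table gives normalized values and group means, read here as scores because they were rounded. It also gives, per the file headers, a percent of samples with signal, a fold (a ratio of means) and a p-value. Per the labels' protocols, 2 ng of RNA were amplified in 5 PCR rounds. No reader software is named in the labels.

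Each sample's counts were scaled by 6 housekeeping genes (Tbp, Sdha, Polr1b, Oaz1, Gapdh and Alas1), using their geometric mean relative to that over samples. Genes exceeding the negative controls' average by 2 SD in at least 5 of 12 samples (40%) were tested. BDS and control were compared with edgeR 4.0.16 (R 4.3.3, quasi-likelihood test, Benjamini-Hochberg over 357 genes), checked on simulated counts. Alternatives used other scalings, DESeq2 1.42.0, limma 3.58.1 (pseudocounts of 1 and 10), other filters and fewer samples; positive-control scaling and the permutation test of single members were added after seeing the data. Ratios were tested over 924 rearrangements.

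Members and lists were chosen with earlier results of these data known. Named were the 9 members, up to 3 genes of smallest p per list, and 2 most similar genes per tested member; a gene that this rule names is not reported here. All 9 accessions matched RefSeq genes of the same symbol. No coordinate comes from the files.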

Additional observations from a re-analysis of the deposited data

Results flagged for a closer look

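Of 26 groups of 6 values (9 genes and 4 ratios in each group), 1 held a sample far from the other 5, which chance gives for roughly 1 group in 20. BDS 21 had 1076 scaled counts of Stat5b, against 804 to 887 in the other BDS samples. Its housekeeping factor of 0.609 was the lowest of all samples.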

How the results depend on the processing

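No paired analysis was possible because the groups share no replicate number. Members past the adjusted threshold stayed at 0 under all 13 alternatives and with each sample left out. With DESeq2 some members had no adjusted p and so could not pass, among them Stat5a (unadjusted p = 0.040, DESeq2), Jak1 and Stat2. Over all genes the count of 0 became 6 with DESeq2 and housekeeping factors and 1 with positive-control scaling, and was 0 to 4 with a sample left out (4 without BDS 7). Positive-control scaling moved the median of all genes to -0.50 and that of the members to -0.48, and turned Stat6 to -0.38 and Socs1 to -0.30 (log2). TMM and median-of-ratios factors turned Jak1 to 0.012 and 0.0068 and Stat5b to 0.035 and 0.026. With Rpl19 over Polr2a as a covariate, Jak1 was 0.067, Jak2 0.044, Tyk2 0.027, Stat2 0.10 and Stat6 -0.011. Without BDS 21, BDS 25 and BDS 55, Jak2 was 0.083, Stat2 0.052 and Stat6 -0.089, and the log2 ratio differences were 0.081 (Stat5a over Stat5b), 0.15 (Stat2 over Stat6), -0.20 (Jak1 over Jak2) and -0.11 (Jak1 over Tyk2). Background subtraction gave -0.018 and -0.015 for these Jak1 ratios. The cause of these turns was not tested. With a sample left out, Jak1 ran from -0.21 to 0.015, Socs1 from -0.083 to 0.31, Jak1 over Jak2 from -0.11 to 0.16 and Jak1 over Tyk2 from -0.11 to 0.14, while Stat5a over Stat5b (-0.26 to -0.13) and Stat2 over Stat6 (-0.35 to -0.15) kept their sign. Stat5a kept its sign under all 14 alternatives (-0.59 to -0.08) and was at an unadjusted p under 0.05 in 4 of the 12 fits with a sample left out (those without control 9, BDS 7, BDS 35 or BDS 43). Genes at an unadjusted p under 0.05, 41 lower and 3 higher, became 14 and 18 with TMM, 14 and 15 with median-of-ratios factors, 20 and 0 with the covariate or without those 3 samples, and 39 and 12 with no filter. They were 88 and 8 without BDS 7, 23 and 3 without BDS 25, and 22 and 4 without BDS 55; other samples left out gave 28 to 52 lower and 2 to 10 higher. With no filter the unadjusted p of Stat5a was 0.051 (edgeR). Depth limits Stat4, whose raw counts were 5 to 24.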
